A study of Mus musculus with 5 samples.

Results

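The genes of the AP-1 transcription factor were examined as binding targets of the coactivator p300 and of c-Jun, itself an AP-1 subunit, in MS5, an established stromal cell line from mouse bone marrow. The 8 genes were Jun, Junb and Jund (the Jun family), Fos, Fosb, Fosl1 and Fosl2 (the Fos family) and Atf3. Each was represented by a fixed window of 60 to 130 kb in the mouse build mm9, 720 kb in all, and a peak belonged to a window when its centre lay in it. The windows held 126 of the 83829 peaks in the 4 deposited lists. Of the p300 peaks, 37 of 31466 without and 32 of 21994 with pioglitazone lay in them. Of the c-Jun peaks, 32 of 17044 without and 25 of 13325 with pioglitazone did.

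All libraries came from cells at passage 11 given TGF-β1, a cytokine that drives stromal cells to deposit matrix, at 10 ng/mL over 5 h, so no library shows cells free of the cytokine. Chromatin fixed with formaldehyde was precipitated for p300 or for c-Jun, from cells with TGF-β1 alone or with TGF-β1 and pioglitazone (20 ng/mL), an agonist of the nuclear receptor PPARγ. Each of the 4 combinations is 1 library. No difference between treatments has a replicate check, none was tested, and the intervals given cover counting error only. A pooled input was not analysed here.

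AP-1 is a dimer of basic leucine zipper proteins. Jun proteins pair with each other, with Fos proteins or with ATF proteins, whereas Fos proteins need a Jun partner to bind DNA well. Several of these genes are immediate-early genes, switched on within minutes by serum and cytokines, and Jun is a textbook case of a gene whose own product binds its promoter. p300 acetylates histones and other proteins and is found at active enhancers and promoters.

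The sequence upstream of the genes is shown first, because c-Jun is known to bind the Jun promoter. RefSeq promoters (build GRCm38.p6) matched 7 of the 8 genes, all but Fosl1. The 250 bases before the start were searched on both strands for the AP-1 site TGANTCA, the cAMP response element TGACGTCA, the AP-1-like element TGACATCA known from the Jun promoter, the SMAD palindrome GTCTAGAC and the CArG box bound by serum response factor. TGACATCA was present upstream of Jun, 45 to 38 bases before the start, and in 2.93% of all 32851 promoters of the table. The other 4 motifs were in 0 of the 7 sequences, against 6.75%, 1.55%, 0.167% and 1.47% of all promoters in the order listed. Bases farther upstream were not searched. The 0 therefore says nothing about elements beyond the 250 bases, at Fos or at any other gene. The shorter core TGACGT, searched after the sequences had been seen and contained in TGACGTCA, was upstream of Fos and Atf3 and in 6.47% of all promoters. The 3 sequences with a match are printed 5′ to 3′ on the gene's strand, with the match in capitals. At Atf3 the capitals are the reverse complement of the core.
Jun: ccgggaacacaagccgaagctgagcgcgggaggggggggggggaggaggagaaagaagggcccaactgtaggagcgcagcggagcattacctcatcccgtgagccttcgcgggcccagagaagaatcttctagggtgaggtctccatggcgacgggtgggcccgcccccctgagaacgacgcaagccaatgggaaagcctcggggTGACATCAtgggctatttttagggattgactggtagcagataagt
Fos: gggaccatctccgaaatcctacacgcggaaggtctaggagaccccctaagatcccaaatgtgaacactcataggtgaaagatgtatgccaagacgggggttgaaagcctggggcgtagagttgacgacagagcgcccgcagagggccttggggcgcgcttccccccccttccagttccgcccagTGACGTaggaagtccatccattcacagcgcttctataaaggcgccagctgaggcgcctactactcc
Atf3: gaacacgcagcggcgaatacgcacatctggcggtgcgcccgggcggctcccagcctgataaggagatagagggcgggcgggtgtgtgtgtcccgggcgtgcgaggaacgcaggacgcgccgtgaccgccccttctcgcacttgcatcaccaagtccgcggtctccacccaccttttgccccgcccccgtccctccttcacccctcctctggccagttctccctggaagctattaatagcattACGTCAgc

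These sequences are not of the build of the peaks. Coordinates were not converted, so no peak was placed on a promoter or within a gene, and a motif match is not a binding site. The windows hold neighbours as well. In the same gene table, a span of the window's width centred on the gene takes in no other protein-coding gene at Jun or Fos. It takes in Babam2 at Fosl2, Fam71a at Atf3, Ppm1n and Rtn2 at Fosb, and 4 to 6 others at Jund, Junb and Fosl1. Which of these genes a peak serves was not tested.

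The peaks formed 57 sites when overlapping peaks of any list were merged, from 3 at Fos to 10 at Jun. All 4 lists shared 11 of them (19.3%), at least 1 in each window. Over the whole genome 12.9% of 44718 merged sites were in all 4 lists. Both proteins were listed, in either treatment, at 27 of the 57 sites, p300 alone at 18 and c-Jun alone at 12. These are 47.4%, 31.6% and 21.1% of the sites, beside 33.5%, 49.7% and 16.7% of all merged sites. Unlike the peak shares given below, these site shares carry no interval and were not matched on position in the lists. No difference from all merged sites was tested. All 3 Fos sites carried both proteins, and 5 of the 7 Fosl2 sites did, and 5 of the 7 Fosl1 sites carried p300 only, numbers too small to tell the genes apart.

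**Figure D1:**
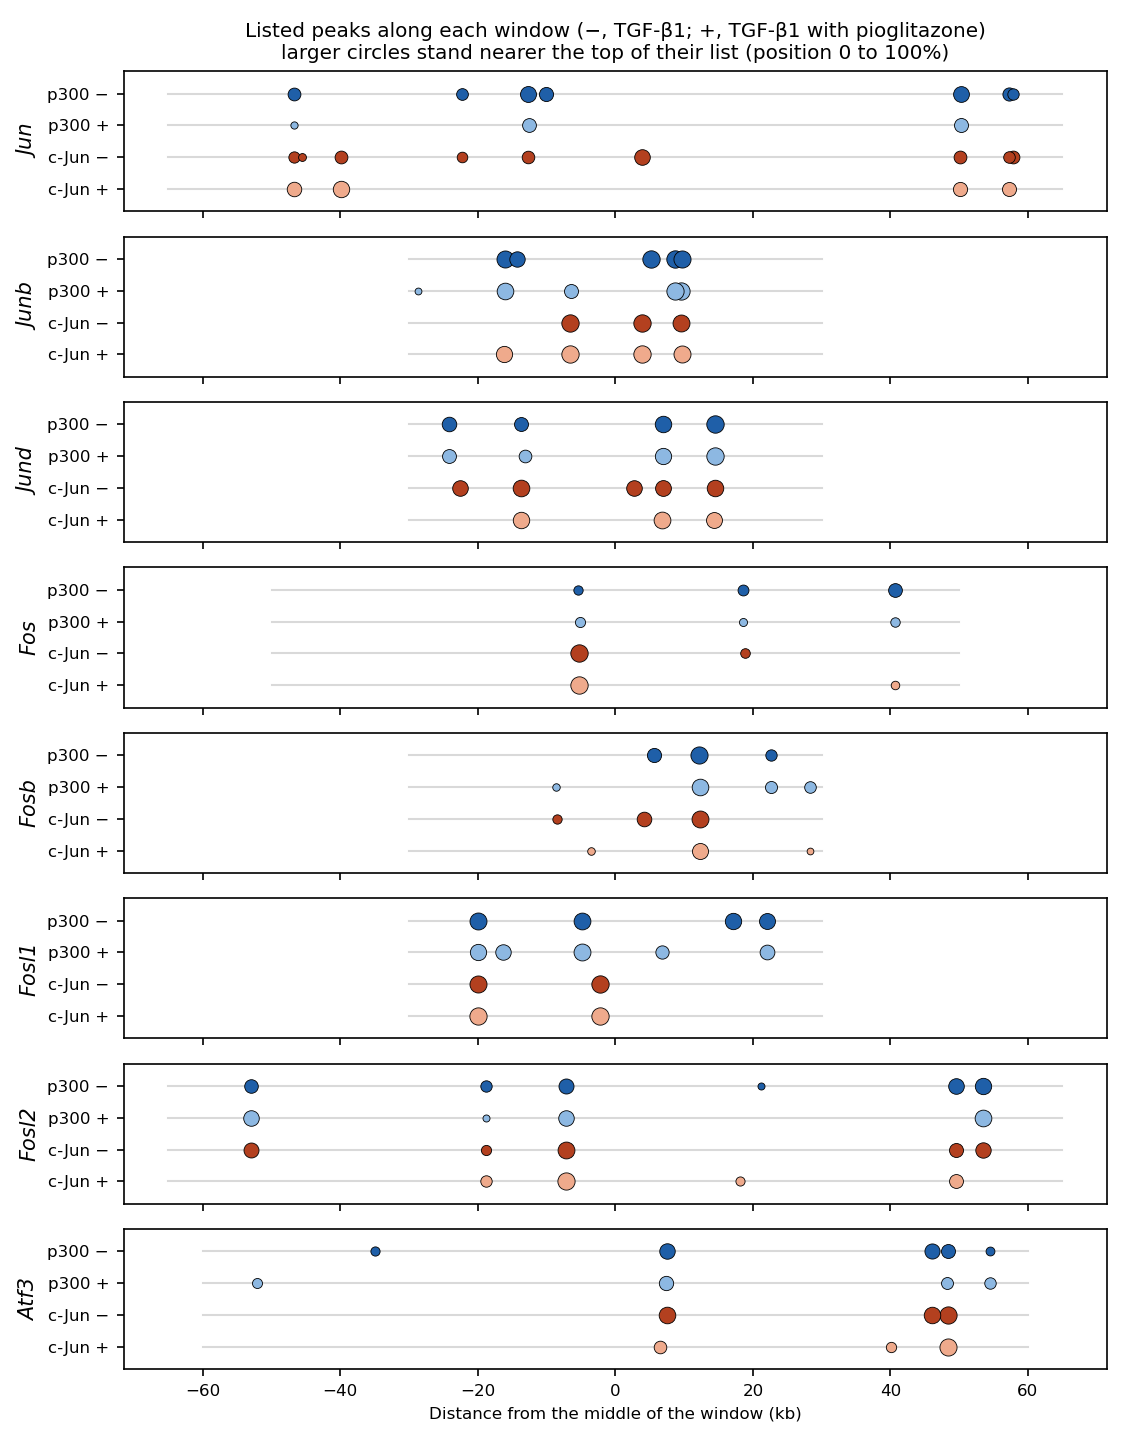
Peaks in the 8 windows by distance from the middle of the window in kb, with 1 line per library (− TGF-β1, + TGF-β1 with pioglitazone). Circle size grows toward the top of the list. The Jun window shows 9 c-Jun circles without and 4 with pioglitazone. At Fos a large c-Jun circle lies below a small p300 circle in both treatments.

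The deposited score is 1 for every peak and gives no height. Position in the list was used in its place, given as the percentage of rows down to the peak, so a low value is near the top. No source states what the rows are sorted by. The longest run of rows in chromosome and position order was 414 rows, and no run exceeded 1.82% of its list. Order broke within fewer rows elsewhere, as between rows 190 and 199 of the c-Jun list without pioglitazone. The longest run is therefore only a cautious guide, and no meaning is read into smaller differences in position. A peak called the highest of its window is the first in the list and may be no different from one that follows within such a run. Positions with and without pioglitazone come from lists of unequal length. They are given side by side and are no measure of a change in binding. Of the c-Jun peaks, 9 of 32 (28.1%) without and 9 of 25 (36%) with pioglitazone were in the first 10% of rows. The share over a whole list is 10.0% by construction. Of the p300 peaks, 8 of 37 (21.6%) and 5 of 32 (15.6%) were.

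Jun encodes c-Jun itself. The count in its window went from 7 to 3 for p300 and from 9 to 4 for c-Jun on pioglitazone. Of its peaks without pioglitazone, 4 of 7 for p300 and 5 of 9 for c-Jun were not listed with it. Over the whole lists 48.9% and 54.3% were not, and numbers this small cannot show a difference from those shares. At least 9 c-Jun peaks were listed without pioglitazone in 15 (0.136%) of the 11017 stretches of 130 kb that held any peak. With pioglitazone the count of 4 was reached in 6.45% of them. For p300, 8.41% reached the count without and 30.6% that with pioglitazone, and over the 4 lists together 3.06% reached the total of 23. The same share over the 4 lists together was 1.25% at Junb, 1.79% at Jund, 4.52% at Fosb and at Fosl1, 6.88% at Fosl2 and 11.7% at Atf3. In single lists, 0.675% of occupied stretches of 60 kb reached the c-Jun count of Jund without pioglitazone. With pioglitazone, 1.15% reached the c-Jun count of Junb, and 1.93% the p300 count of Junb and of Fosl1. The largest single-list share was 38.3%, for p300 at Fos without pioglitazone. The windows were chosen with earlier results known, so these shares are descriptions and no test. The c-Jun peaks at Jun ranged from 23.1% to 92.7% of the list without pioglitazone (median 55.8%) and from 13% to 40.9% with it (median 37.4%). All 3 p300 peaks listed with pioglitazone and all 4 c-Jun peaks overlapped one listed without it. The fall in c-Jun peaks depended on which rows were used. In the upper 50% of each list there was 1 c-Jun peak without and 4 with pioglitazone, and p300 went from 4 to 2. Several c-Jun peaks without pioglitazone lay just past that limit, at 53.6% to 55.8%, so the count of 1 depends on where the limit is put. For lists of equal length, the longer list of each antibody was cut to as many first rows as the shorter one has. With them the c-Jun counts were 8 and 4 and the p300 counts 7 and 3. In the inner 50% of the window they were 3 and 0 for c-Jun and 3 and 1 for p300.

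At the sites of the Jun window listed in both treatments, the 4 c-Jun peaks had lower percentages with pioglitazone, with differences of -40.6 to -14.5 percentage points. The 3 p300 peaks had percentages 20.4 to 42.9 points higher. The median difference over all peaks listed in both treatments was 2.3 points for c-Jun and 5.53 for p300. The c-Jun peak with the largest such difference, chr4:94674904-94675152, was at 53.6% without and 13% with pioglitazone, the highest of the Jun window in that list, and overlapped no p300 peak in either. Of all peaks listed in both treatments, 39.8% of 7783 c-Jun and 30.1% of 16077 p300 peaks stood nearer the top with pioglitazone. Over the 8 windows this held for 9 of 18 c-Jun and 8 of 24 p300 peaks, so the Jun window supplied 4 of those 9.

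The leading p300 peaks of the Jun window were chr4:94702237-94702483, at 19.2% without and 43.6% with pioglitazone, and chr4:94765097-94765343, at 21% and 41.4%. At the first of them c-Jun was listed without pioglitazone only, at 55.8%. At the second, c-Jun was listed in both treatments, at 53.7% and 39.1%. The c-Jun peak nearest the top without pioglitazone, chr4:94718771-94719019 at 23.1%, had no c-Jun peak within 43805 bp, centre to centre, in the list with it. No p300 peak overlapped it. A pair of neighbouring sites from chr4:94772124 to chr4:94772897 carried both proteins without pioglitazone. With it, c-Jun was listed at 1 of the pair and p300 at neither.

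Junb, whose product often restrains c-Jun and is induced by TGF-β in many cells, had peaks near the top of all 4 lists. It held 5 p300 peaks in each treatment and 3 c-Jun peaks without and 4 with pioglitazone. The 3 c-Jun peaks listed in both treatments differed in position by -1.05 to 0.318 percentage points, with minus without pioglitazone. Differences of this size were not interpreted. chr8:87503736-87503984 was at 1.11% without and 1.29% with pioglitazone, chr8:87493298-87493546 at 1.17% and 1.49%, and chr8:87509362-87509610 at 6.49% and 5.45%. The last of these overlapped a p300 peak in both treatments. The first overlapped none in either, and the second overlapped one with pioglitazone only, gained at 41.7%.

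The p300 peak chr8:87508484-87508730 was the highest of the Junb window without pioglitazone (0.817%, and 2.52% with it), and chr8:87509482-87509708 was the highest with it (2.16%, against 4.41% without). Between these and the c-Jun peak at 87503736 lay the p300 peak chr8:87505018-87505264, at 1.12% without pioglitazone and not listed with it. The nearest p300 peak of that list was 3472 bp away. Its centre was 1281 bp from that of the c-Jun peak at 87503736. At chr8:87483723-87484068 p300 was listed in both treatments (5.23% and 10.2%), and a c-Jun peak was gained there with pioglitazone at 15.3%, the only gained c-Jun peak of the 8 windows in the first 25% of its list.

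Jund, the more steadily expressed Jun gene, held 4 p300 peaks in each treatment and 5 c-Jun peaks without and 3 with pioglitazone. Its p300 peak chr8:73234307-73234553 was at row 119 of 31466 without and row 251 of 21994 with pioglitazone. In each list this was closer to the leading Junb peaks than the longest ordered run is long. c-Jun overlapped this Jund peak in both treatments, at 11.7% and 19.7%. At chr8:73226682-73227044 all 4 lists had a peak. c-Jun there was at 20.8% without and 8.55% with pioglitazone, its highest place in the window in that list, and p300 was at 12.3% and 14.8%. Without pioglitazone the highest c-Jun peak was chr8:73206219-73206467, at row 1711 of 17044, and it stood at 12.7% with pioglitazone. Both c-Jun peaks not listed with pioglitazone, chr8:73197252-73197500 and chr8:73222642-73222890, were at 23.2% and overlapped no p300 peak.

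Fos, the founding member of the Fos family and a classic immediate-early gene, carried 1 of the 4 c-Jun peaks in the first 2% of rows, with those at Junb and Fosl1. chr12:86814546-86814794 was at row 152 of 17044 without pioglitazone (0.892%) and row 160 of 13325 with it (1.2%). p300 overlapped it in both treatments but low in its lists, at 83.2% and 77%. The window held 3 p300 peaks and 2 c-Jun peaks in each treatment. With lists of equal length the p300 count was 1 without and 3 with pioglitazone, and the c-Jun count 1 and 2. The other 2 sites differed in c-Jun: chr12:86838446-86838918 had it without pioglitazone only (81%), and chr12:86860534-86860805 with it only (88.6%). p300 was listed at both sites in both treatments. The highest p300 peak without pioglitazone was at the second of these, at 44%, and was at 82.2% with it. In total the Fos window had 10 peaks over the 4 lists, and 22.4% of the 13116 occupied stretches of 100 kb had at least as many. By the counts per 100 kb in the 4 lists, Fos was most like Atf3, with a summed absolute difference of 2.5 peaks per 100 kb, the smallest of the 28 pairs of genes. Their windows are 100 and 120 kb wide, and every window of 60 kb had more peaks per 100 kb in each list. The part of window width in this likeness was not tested.

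Fosb, a close relative of Fos with the same early kinetics in many cells, had 1 site in all 4 lists. At chr7:19902105-19902423 p300 was at 3.46% and 10.5% and c-Jun at 6.48% and 18%, without and with pioglitazone. Counts went from 3 to 4 for p300 and stayed at 3 for c-Jun. The rise in p300 lay in the lower rows, since the upper 50% of the lists held 2 and 1. Of the other 6 sites, p300 was listed in both treatments at chr7:19912466-19912810 (67.1% and 60.4%), and the rest appeared in 1 treatment only for each protein. At 1 of them, chr7:19881297-19881592, p300 was listed only with and c-Jun only without pioglitazone, a pattern found at 0.995% of all merged sites.

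Fosl1 encodes Fra-1, a Fos protein without a strong transactivation domain and a known AP-1 target. Both of its c-Jun sites were listed in both treatments and near the top. chr19:5447659-5447907 was at 1.41% and 1.46% and overlapped no p300 peak in either treatment. The nearest p300 centre was 2686 bp away without and 2659 bp away with pioglitazone. chr19:5429884-5430132 was at 5.03% and 2.35% and overlapped p300 in both, at 5.9% and 14.9%. The p300 peaks went from 4 to 5. chr19:5444974-5445220 was at 8.21% without and 6.97% with pioglitazone, the highest p300 peak of the Fosl1 window in that list. The p300 peak chr19:5471916-5472162 was at 19.1% and 32.9%. The p300 peak chr19:5467021-5467267 (13.8%) was not listed with pioglitazone, and chr19:5433487-5433713 (24.7%) was gained, the only gained p300 peak of the 8 windows in the first 25% of its list.

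Fosl2 encodes Fra-2, which is linked to fibrosis. Counts in its window went from 6 to 4 for p300 and from 5 to 4 for c-Jun. In the inner 50% of the window the c-Jun counts were 2 and 3. Every c-Jun peak without pioglitazone (5 of 5) overlapped a p300 peak, and 2 of 4 with pioglitazone did. The whole c-Jun lists gave 69.4% and 55.5%, and counts this small cannot show a difference from them. The highest c-Jun peak, chr5:32437732-32437980, was at 7.57% without and 2.85% with pioglitazone, with p300 at 30% and 24.2%. The highest p300 peak, chr5:32498336-32498582, was at 14% and 9.48%. c-Jun was listed there without pioglitazone only, at 25.7%. The p300 peak at chr5:32391884-32392130 also stood nearer the top with pioglitazone (45.7% and 23.7%), where c-Jun was listed without it only, at 30.6%. A nearby site, chr5:32494374-32494624, showed the reverse: c-Jun was listed in both treatments (41.3% and 42.7%) and p300 without pioglitazone only (22.9%).

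Atf3, a stress-induced gene of the ATF family whose product pairs with Jun proteins and cooperates with SMADs, had 5 p300 peaks without and 4 with pioglitazone and 3 c-Jun peaks in each. With p300 lists of equal length the p300 counts were 3 and 4, and in the upper 50% of the lists both proteins had 3 peaks without and 1 with pioglitazone. chr1:193048246-193048494 kept c-Jun near the top, at 2.33% and 4.17%, with p300 at 41.7% and 61.9%. The other c-Jun peaks without pioglitazone, chr1:193007375-193007623 at 10.5% and chr1:193045978-193046226 at 11.6%, were not listed with it, and both overlapped p300. p300 was still listed at the first of them, as the highest p300 peak of the Atf3 window in both treatments (24.7% and 37.9%), and was missing at the second. The c-Jun peaks gained in the window were at 55.6% and 75.6%. The first of them lay 1068 bp, centre to centre, from the missing peak at 193007375.

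**Figure D2:**
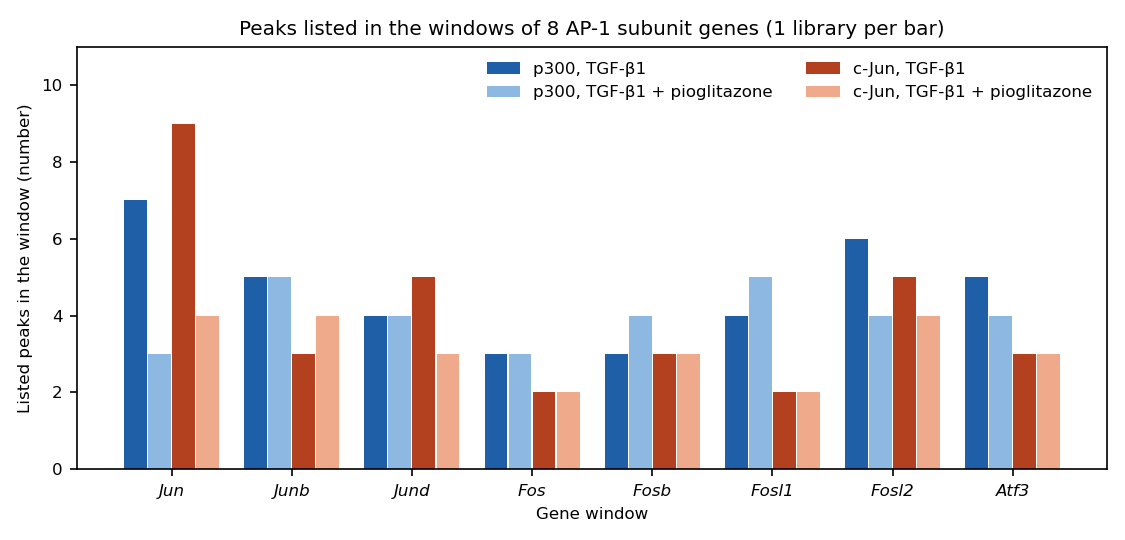
Number of listed peaks in each gene's window, with 1 bar per library in 4 colours for antibody and treatment. Jun falls from 7 to 3 p300 and from 9 to 4 c-Jun peaks. The other genes differ by at most 2 between treatments. Over the whole lists, 48.9% of p300 and 54.3% of c-Jun peaks without pioglitazone were not listed with it.

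**Figure D3:**
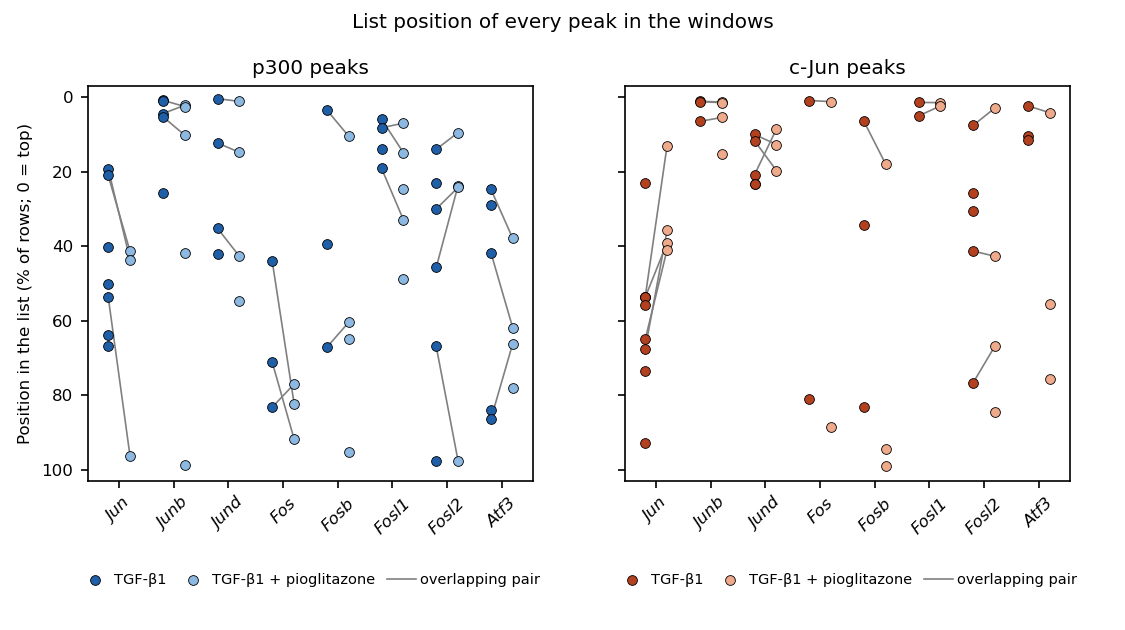
Position in the list, as a percentage of rows with 0 at the top, for each p300 (left) and c-Jun (right) peak of the windows. Dark points are TGF-β1, pale points TGF-β1 with pioglitazone, and lines join overlapping peaks. At Jun the 4 joined c-Jun peaks have lower percentages with pioglitazone and the 3 joined p300 peaks higher ones. The lists differ in length, and the whole-list median differences are 2.3 (c-Jun) and 5.53 (p300) points.

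Over the 8 windows together, p300 peaks numbered 37 without and 32 with pioglitazone and c-Jun peaks 32 and 25. Jun alone accounted for 4 of the 5 fewer p300 peaks and 5 of the 7 fewer c-Jun peaks, as net differences. Of the peaks not listed with pioglitazone, the Jun window held 4 of 13 for p300 and 5 of 14 for c-Jun. It gained 0 peaks of either protein. Without Jun the counts were 30 and 29 for p300 and 23 and 21 for c-Jun. The lists with pioglitazone are shorter over the whole genome. With lists of equal length the p300 counts were 32 and 32, and the c-Jun counts 29 and 25. These counts rest on the unexplained row order and do not equalise depth.

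Without pioglitazone, 13 of the 37 p300 peaks (35.1%) had no p300 peak with it, and over the whole list 48.9% had none. The share that did have one was 64.9% (exact 95% interval 47.5 to 79.8). Whole-list peaks matched on position, in steps of 10% of rows, gave 63.8%. For c-Jun, 14 of 32 peaks (43.8%) had no c-Jun peak with pioglitazone, against 54.3% of the whole list. The share with one was 56.2% (37.7 to 73.6), and 59.1% when matched on position. With pioglitazone, 8 of 32 p300 peaks (25%) and 7 of 25 c-Jun peaks (28%) were gained. Over the whole lists 26.9% and 41.6% were gained. Matched on position, whole-list peaks were listed in both treatments in 75% (p300) and 72% (c-Jun) of cases, the same shares as in the windows. A peak of the same antibody in the other treatment lay within 1000 bp of 1 of the 13 missing and 1 of the 8 gained p300 peaks, and of 1 of the 14 missing and 0 of the 7 gained c-Jun peaks. The closest gained c-Jun peak lay just outside that distance, the one 1068 bp away at Atf3.

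The share of p300 peaks that overlapped c-Jun was above that of the whole list in both treatments. Without pioglitazone 22 of 37 did, 59.5% (42.1 to 75.2), against 37.6% of the whole list and 48% when matched on position. With pioglitazone 15 of 32 did, 46.9% (29.1 to 65.3), against 33.7% and 36.9%. The intervals include the matched values in both treatments and, with pioglitazone, the whole-list value. Since the genes were chosen as AP-1 genes with earlier results known, no test was made. Seen from c-Jun, 22 of 32 peaks without pioglitazone overlapped p300, 68.8% (50 to 83.9), and 15 of 25 with it, 60% (38.7 to 78.9). The whole lists gave 69.4% and 55.5%, and the matched values were 76.1% and 64.3%.

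**Figure D4:**
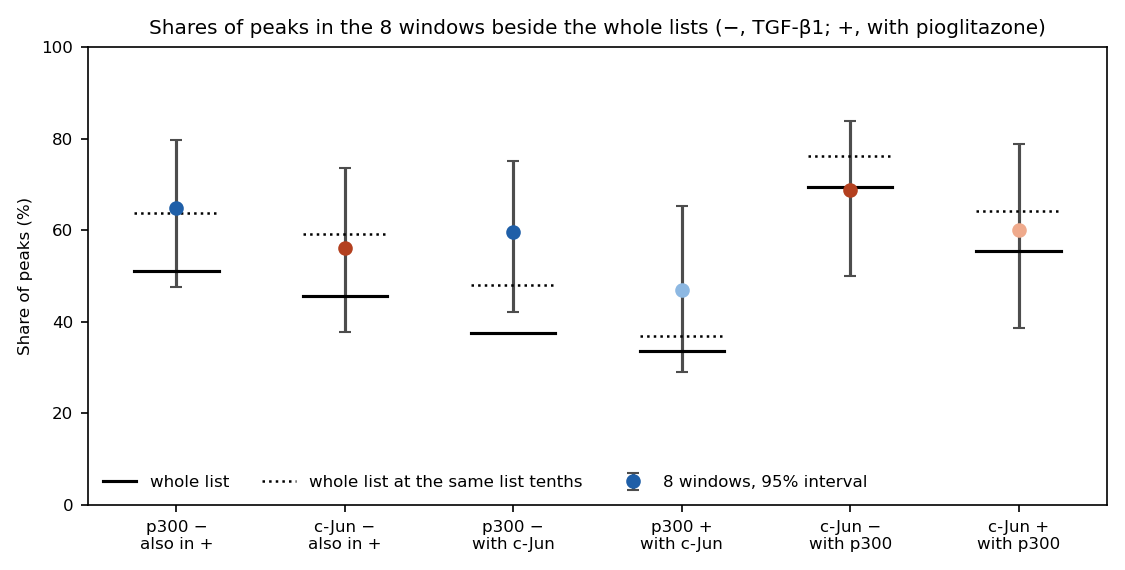
Share of peaks in the 8 windows (points, in percent, with exact 95% intervals for counting error) that are also listed in the other treatment or overlap the other protein. Solid lines give the whole list and dotted lines the whole list matched on position. The points for peaks also listed with pioglitazone, 64.9% and 56.2%, lie within 3 points of the dotted lines.

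In the first 2% of rows, a limit set after the values had been seen, were 4 c-Jun peaks in each treatment: 2 at Junb and 1 each at Fos and Fosl1. Of these, 3 of 4 overlapped no p300 peak without pioglitazone and 2 of 4 with it. Of all c-Jun peaks in the first 2% of rows, 38.8% of 340 and 48.9% of 266 overlapped none. In the first 1% of rows the windows held 1 c-Jun peak without and 0 with pioglitazone, and 0 lacked p300, beside 50.6% and 46.6% of all c-Jun peaks there. In the first 5%, 3 of 5 and 2 of 7 overlapped no p300 peak, beside 21.5% and 30% of all. So few peaks cannot show a difference from these shares.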

How the data were processed

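Peak lists of 4 ChIP-seq libraries were analysed, 1 for each antibody and treatment. Build mm9 and the tools HOMER, SAMtools 1.9 and Bowtie2 2.3.4.3 are named per the submitters' processing notes. The HOMER version, peak threshold, input use and duplicate handling were not given in the sources used here. The authors deposited positions and a score of 1 for every peak, with no counts or heights, so depth is unknown. Peak widths are 227 to 249 bp, 1 width per list. The list lengths limit what can be seen, since a shallower library gives fewer peaks.

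Windows came from the stated rule. No mm9 annotation was used to check them. Overlap meant at least 1 bp. It was computed in Python (version 3.11.15, numpy 2.4.6, scipy 1.17.1), tested on simulated data, and equal to bedtools (version 2.31.1) in 24 of 24 whole-list comparisons. Shares carry exact Clopper-Pearson 95% intervals. Values matched on position average the whole list's share over each peak's step of 10% of rows. Occupied stretches are non-overlapping bins of the window's width with at least 1 peak. No test between treatments was made, with 1 library per group. Named are all 8 genes, the highest peak of each window and list, and peaks of 1 treatment in the first 25% of rows. The genes, windows and motifs were chosen with earlier results of these data known. Other genes of the pathway were not analysed here, as no mm9 positions for them were used. Alternatives varied window extent, overlap, rows used and the Jun window. Equal list lengths were made by keeping only the first rows of the longer list of each antibody.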

Additional observations from a re-analysis of the deposited data

Results flagged for a closer look

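Of the 57 sites in the windows, 1 differed between the antibodies in opposite directions. At the Fosb site chr7:19881297-19881592, p300 was listed only with pioglitazone, at 95.1% of its list, and c-Jun only without it, at 83.2%. The site was picked out because each protein is present in the treatment where the other is missing. The difference was not tested, since each group is 1 library. Over the whole genome, 445 of 44718 merged sites (0.995%) had this pattern. The reverse pattern, p300 only without and c-Jun only with pioglitazone, would have been picked out as well. It was found at 784 merged sites (1.75%) and at 0 of the 57. So few sites cannot show a difference from these shares.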

How the results depend on the processing

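No paired analysis was possible because each antibody and treatment is 1 library. The 4 shares (peaks also listed with pioglitazone for p300 and c-Jun, and c-Jun peaks with p300 in each treatment) stayed within their intervals under every alternative run. The intervals are wide and the alternatives reuse the same peaks, so this outcome was likely beforehand. The p300 share also listed with pioglitazone was 64.9%, beside 51.1% of the whole list. It was 65.6% beside 64.6% with equal list lengths, and 59.3% beside 56.5% with the first 50% of rows. For c-Jun the same pairs were 56.2% and 45.7%, 62.1% and 52.9%, and 61.9% and 51.2%. In the inner 50% of each window the counts without and with pioglitazone were 19 and 16 for p300 and 19 and 14 for c-Jun, a p300 difference of -3. With the first 50% of rows they were 27 and 19, and 21 and 18, differences of -8 and -3. With equal list lengths the differences were 0 and -4. Without the Jun window, an alternative added after the data had been seen, they were -1 and -2. All of these compare with -5 for p300 and -7 for c-Jun. The c-Jun difference at Fosl2 turned to 1 in the inner 50%, that at Jun to 3 with the first 50% of rows, the p300 difference at Fosb to -1 with the first 50% of rows, and that at Atf3 to 1 with equal lengths. Fewer peaks in these settings follow from their construction, and the cause of the other changes was not tested. In the first 1% of rows, 0 c-Jun peaks of the windows lacked p300 in either treatment, since 1 peak was left without and 0 with pioglitazone. Unknown depth limits every count.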
